A study of Mus musculus with 160 samples.

Results

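The forkhead transcription factors *Foxc1*, *Foxc2*, *Foxf1*, *Foxf2*, *Foxd1*, *Foxd2*, *Foxl1* and *Foxl2* were examined in cells of the aorta-gonads-mesonephros (AGM) region of mouse embryos, the tissue in which the first hematopoietic stem cells arise. The 8 genes were chosen by symbol, with *Foxd1* and *Foxd2* taken from the FoxD subfamily and *Foxd3* and *Foxd4* counted among the other forkhead genes, out of 46078 genes in the count table. All embryos carried the genotype *Gata3*-GFP +/-, in which GFP reports *Gata3* from a single modified allele, so GFP+ and GFP- cells shared this genotype. Endothelial cells (ECs: Cdh5+ CD41- CD45-) and hematopoietic cells (HCs) came from E10.5 embryos. The HC gate took CD41 and CD45 together, so an HC need not have carried both markers. Mesenchymal cells (MCs: Pdgfrb+) and sympathetic nervous system cells (SNS: Ngfr+) came from E11.5 embryos. Each cell type was sorted as a GFP+ and a GFP- population. Full-length cDNA was amplified (SmartSeq2) from pools of 20 cells, with 20 pools deposited for each of the 8 populations. The study describes, for ECs and HCs, a first sort of several biological replicates into tubes by population and a second sort into pools, and no pool is tied to an embryo or litter. The pools of a population may thus share embryos, and the p-values measure the spread between pools, which may be technical.

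Forkhead factors bind DNA through a winged-helix domain, and the subfamilies studied here are best known as factors of mesoderm. FoxC factors act in paraxial and intermediate mesoderm and in arterial and lymphatic endothelium. FoxF factors mark lateral plate and visceral mesenchyme and respond there to Hedgehog ligands from epithelia, FoxD1 marks the stromal progenitors of the kidney, FoxL1 the mesenchyme beneath the gut epithelium, and FoxL2 the granulosa lineage of the ovary. The comparisons below ask how their RNA levels differed between *Gata3*-GFP+ and *Gata3*-GFP- cells of the same type, since *Gata3* itself is expressed in the sub-aortic mesenchyme, the sympathoadrenal lineage and part of the endothelium.

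The 8 genes lie at 5 places in the genome (GRCm38, GENCODE release M21). *Foxf1* (ENSMUSG00000042812, chr8:121084386-121088144, plus strand), *Foxc2* (ENSMUSG00000046714, chr8:121116171-121118895, plus) and *Foxl1* (ENSMUSG00000097084, chr8:121127940-121130644, plus) form a cluster in which 28.03 kb separate *Foxf1* from *Foxc2* and 9.05 kb separate *Foxc2* from *Foxl1*. *Foxf2* (ENSMUSG00000038402, chr13:31625816-31631403, plus) and *Foxc1* (ENSMUSG00000050295, chr13:31806633-31812476, plus) form a similar pair 175 kb apart. *Foxd1* (ENSMUSG00000078302, chr13:98354242-98359305, plus), *Foxd2* (ENSMUSG00000055210, chr4:114906282-114908873, minus) and *Foxl2* (ENSMUSG00000050397, chr9:98955288-98958543, plus) stand apart from the others. *Foxf1* and *Foxf2* have 2 exons and each of the others a single one. Over their exons, *Foxf1* shared 4.06% of its bases with *Gm27530*, *Foxf2* 4.15% with *Gm27516* and *Foxl2* 0.369% with *Foxl2os*, all on the opposite strand, and reads there cannot be told apart without strand.

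The promoters of the pair on chromosome 13 and of *Foxd1* are shown because *Foxf2* and *Foxd1* differed strongly with *Gata3*-GFP in MCs whereas *Foxc1* did not. These are the 250 bases before the RefSeq start (GRCm38.p6, plus strand, 5′ to 3′), with every CG in capitals.
Foxf2 (chr13:31625566-31625815): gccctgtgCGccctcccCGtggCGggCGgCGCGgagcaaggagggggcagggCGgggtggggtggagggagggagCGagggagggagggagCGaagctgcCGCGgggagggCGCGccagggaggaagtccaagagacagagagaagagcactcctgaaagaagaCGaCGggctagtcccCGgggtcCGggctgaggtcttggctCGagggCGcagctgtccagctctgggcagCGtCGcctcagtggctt
Foxc1 (chr13:31806396-31806645): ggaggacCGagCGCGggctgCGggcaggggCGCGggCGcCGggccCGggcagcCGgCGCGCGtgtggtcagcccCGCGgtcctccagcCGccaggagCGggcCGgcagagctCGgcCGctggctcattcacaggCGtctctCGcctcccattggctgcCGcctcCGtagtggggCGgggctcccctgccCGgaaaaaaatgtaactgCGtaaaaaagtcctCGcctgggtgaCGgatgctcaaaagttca
Foxd1 (chr13:98353995-98354244): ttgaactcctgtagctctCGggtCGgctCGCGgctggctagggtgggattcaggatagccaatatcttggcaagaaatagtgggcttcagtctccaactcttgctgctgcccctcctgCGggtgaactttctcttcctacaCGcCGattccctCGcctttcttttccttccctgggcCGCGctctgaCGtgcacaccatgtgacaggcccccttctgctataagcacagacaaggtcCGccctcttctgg
The *Foxc1* window held 29 CG dinucleotides at 70.8% G and C, the *Foxf2* window 21 at 71.6% and the *Foxd1* window 12 at 57.2%, against medians of 6 and 52.4% over 32851 promoters. A window was found for 5 of the 8 genes, also *Foxd2* (16 CG, 64.4% G and C) and *Foxl2* (22 CG, 70.8%). None of the 5 windows held a GATA motif on either strand, searched as GATA with A or T before it and A or G after it, which 26.5% of all promoters did.

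Of the 160 pools, 7 failed the quality limits applied. Within each of the 4 E11.5 populations, 3 pools went against their label: *Ngfr* exceeded *Pdgfrb* in 3 GFP+ and 3 GFP- MC pools, and the reverse held in 3 GFP+ and 3 GFP- SNS pools. Among the 6 MC pools, raw *Ngfr* was 1165 to 2715 counts in the GFP+ and up to 820 in the GFP- pools with at most 68 of *Pdgfrb*, whereas the other 31 held 1 to 75 of *Ngfr* and 234 to 1778 of *Pdgfrb*. The 6 MC pools were left out, and the pools that remained had 1400824 to 16004756 reads on genes. SNS results are given with and without the 6 SNS pools. The pools against their label resembled other populations in the forkhead genes as well. In CPM, the counts over a library size scaled by the trimmed mean of M values and given per 1000000, *Foxc2* stood at 104.3 to 193 CPM in the 6 SNS pools and at 0.681 to 24.3 CPM in the 6 MC pools. *Gata3* was higher in GFP+ than GFP- pools, as labelled, at 36.3 ± 12.03 CPM (SD, n = 17) against 9.87 ± 4.37 (n = 14) in MCs and 79.04 ± 30.6 (n = 19) against 12.2 ± 6.89 (n = 20) in ECs.

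**Figure D1:**
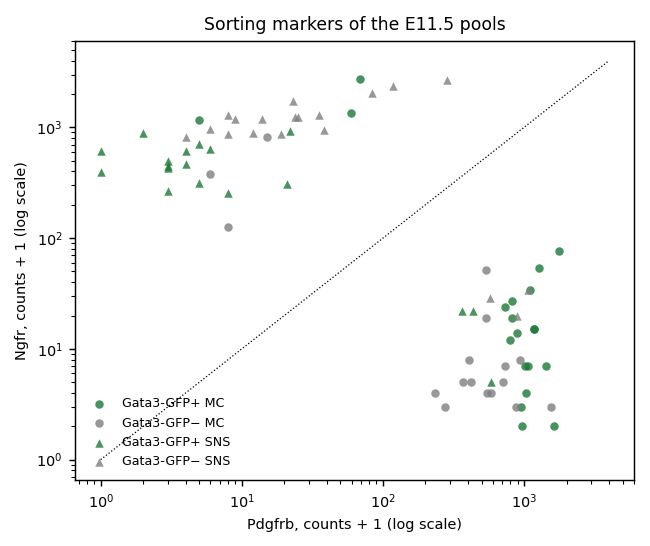
Raw counts of *Ngfr* and *Pdgfrb*, the sorting markers of SNS cells and MCs, with 1 point for each E11.5 pool that passed quality control (log axes, counts + 1; dotted line of equal counts). The pools against their label, 3 in each of the 4 populations, lie on the wrong side of the line of equal counts, and the 6 among MCs were left out unless stated.

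Across the 8 populations, 7 of the 8 genes reached their highest median in MCs. *Foxl2* was not detected there: it was at 0 in every HC, MC and SNS pool and reached at most 3 counts in any EC pool. A count of 0 allows up to 3 counts, or 0.718 CPM in a GFP+ MC pool of median depth and 0.946 CPM in a GFP- one. Such limits cover counting error only, since amplified reads carried no molecular identifiers. In pools, fewer cells with a transcript and less of it per cell cannot be told apart.

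*Foxc1* and *Foxc2* were the 2 members present in most populations. Median *Foxc1* was 107.1 CPM in GFP+ MCs, 101.8 in GFP- MCs, 32.03 in GFP+ ECs, 29.5 in GFP- ECs, 6.54 in GFP+ HCs and 1.64 in GFP- HCs, and without the pools against their label 10.8 in GFP- SNS and 4.93 in GFP+ SNS. The MC ranges of 67.8 to 173 CPM lay above the EC ranges of 4.98 to 65.7, while GFP+ and GFP- ranges overlapped within each cell type. *Foxc2* had the order GFP+ MC (158.2 CPM), GFP- MC (116.1), GFP+ EC (88.5), GFP- EC (19.7), GFP- SNS (13.9), GFP+ HC (3.35), GFP+ SNS (0.557) and GFP- HC (0.381). Per kilobase of exon, mean *Foxc2* stood at 59.04 CPM in GFP+ MCs and mean *Foxc1* at 18.9, so *Foxc2* was the more abundant FoxC transcript there.

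The other 5 detected members had their highest medians in GFP- MCs. *Foxd1* had medians of 70.3 CPM in GFP- MCs and 14.2 in GFP+ MCs, and without the pools against their label at most 8.76 CPM in any SNS pool. *Foxf2* followed with 25.9 CPM in GFP- MCs and 3.55 in GFP- ECs, its median being 0 in GFP+ MCs. *Foxf1* reached a median of 6.06 CPM in GFP- MCs and medians of at most 0.309 elsewhere. Single pools were higher, with up to 24.7 CPM in GFP+ HCs and 22.8 CPM in GFP+ ECs. For *Foxf1*, GFP- MCs and GFP+ HCs were not shown to differ (adjusted p = 0.125, permutation test described below). *Foxd2* (10.7 CPM in GFP- MCs, 4.11 in GFP+ MCs, 3.90 in GFP- SNS) and *Foxl1* (7.08 and 5.28 CPM in GFP- and GFP+ MCs) had lower medians in GFP- MCs than *Foxd1* and *Foxf2*. Per kilobase of exon the GFP- MC means were 14.4 CPM for *Foxd1*, 13.5 for *Foxf2*, 4.41 for *Foxd2*, 3.51 for *Foxf1* and 2.79 for *Foxl1*. The similarity of *Foxd1* and *Foxf2* depended on the scaling for length, as their medians there were 70.3 and 25.9 CPM. The *Foxf2* mean also included a single pool at 100.8 CPM. Of 49 pairs of populations neighbouring in the order of a gene, 9 differed at an adjusted p under 0.01 (two-sided permutation test of log2(CPM + 1), 100000 resamples), and 13 did without the SNS pools against their label.

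**Figure D2:**
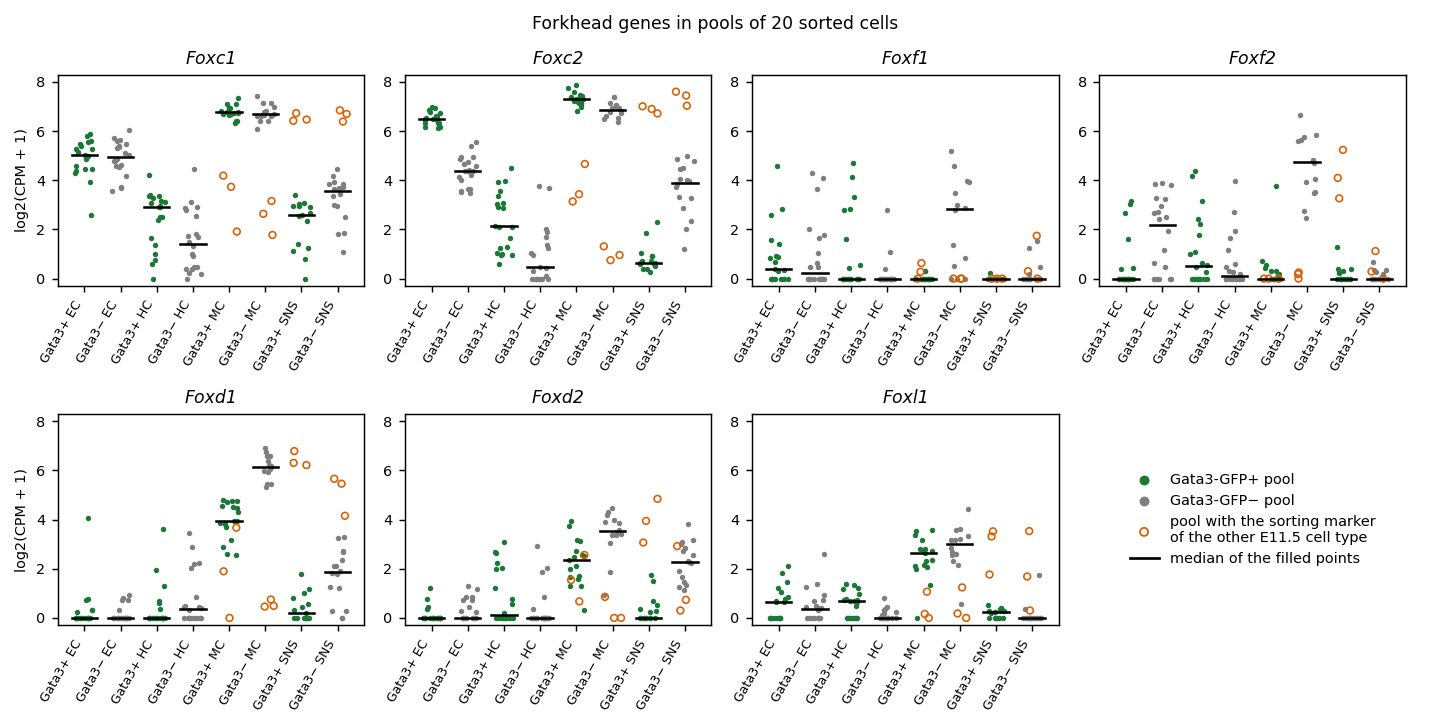
log2(CPM + 1) of the 7 detected genes in pools of each population, with 1 point per pool, the median of the filled points as a bar, and the 12 MC and SNS pools against their label as open circles. *Foxc1* and *Foxc2* are highest in MCs and present in ECs, and *Foxf1*, *Foxf2*, *Foxd1*, *Foxd2* and *Foxl1* have their highest medians in GFP- MCs.

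In MCs, FoxF and FoxD1 transcripts were lower in *Gata3*-GFP+ than in *Gata3*-GFP- pools, *Foxc2* was slightly higher and *Foxc1* did not pass the test. Of 15226 genes tested with edgeR's quasi-likelihood test, 10.4% were called at an adjusted p under 0.01, 5.52% higher and 4.9% lower in GFP+ pools. Of the 8 forkhead genes, 7 were tested, of which *Foxc2* was called higher and *Foxf1*, *Foxf2* and *Foxd1* lower, and *Foxl2* fell below the filter of 10 counts in 5 pools. *Foxf1* and *Foxf2* passed that filter only through the GFP- pools, so their being tested already depended on the difference. The lists of mural and mesenchymal markers moved as well: the summed level of 8 mural markers was 5245 to 11461 CPM in GFP+ and 968 to 4932 in GFP- pools (6 of 8 higher), and that of 10 mesenchymal markers 3887 to 5617 and 2801 to 4108 (4 higher, 2 lower). Of 11 sympathetic markers, 7 were tested and 2 were higher, with sums of 111.1 to 201 CPM in GFP+ and 26.9 to 121.2 CPM in GFP- pools. The part of these lists in the forkhead differences was not tested.

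*Foxf1*, which patterns visceral mesenchyme and vessels, was at 0 in 15 of 17 GFP+ MC pools and had a single read in each of the other 2. In the 14 GFP- pools it ranged from 0 to 35.2 CPM with a median of 6.06, and 9 pools held at least 10 counts. Thus 11 of 14 GFP- pools lay above every GFP+ pool, and 3 GFP- pools were at 0. Summed over pools, 568 reads stood against 2, a ratio of 423 after scaling for depth (95% interval 116.5 to 3499, counting error only), and the edgeR log2 fold change of -7.28 (SE 0.85, adjusted p = 8.65e-08) depends on the prior count.

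*Foxf2*, a relative of *Foxf1* also known from gut mesenchyme and brain pericytes, was found in every GFP- MC pool, from 4.48 to 100.8 CPM with a median of 25.9. In GFP+ pools it ranged from 0 to 12.5 CPM with a median of 0, and 9 of 17 pools were at 0. A single GFP+ pool had 59 counts and no other more than 3, so 16 of 17 GFP+ pools lay below every GFP- pool. The log2 fold change was -5.14 (SE 0.71, adjusted p = 1.85e-06), and -7.62 (SE 0.54, adjusted p = 4.90e-12) without that pool. The ratio of summed reads, GFP- over GFP+, was 45.6 (95% interval 35.9 to 58.9) with it and 296 (160.8 to 619) without it.

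*Foxd1*, the marker of kidney stroma, was detected in all MC pools, at 4.97 to 26.8 CPM (median 14.2) in GFP+ and 38.6 to 119.95 CPM (median 70.3) in GFP- pools. The 2 groups did not overlap, and *Foxd1* fell by 2.16 on the log2 scale (SE 0.23, adjusted p = 1.13e-08). *Foxd2*, expressed in mesenchyme of the kidney and face, ranged from 0.260 to 14.5 CPM (median 4.11) in GFP+ and from 0.920 to 20.9 CPM (median 10.7) in GFP- pools. Only 4 of 14 GFP- pools were above every GFP+ pool, and its log2 fold change of -1.24 (SE 0.38) missed the threshold with edgeR (adjusted p = 0.0201) but passed it with DESeq2 (-1.25, adjusted p = 0.00760).

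*Foxc2*, known from arteries, lymphatic valves and the axial skeleton, ranged from 111.9 to 235 CPM (median 158.2) in GFP+ and 81.6 to 167 CPM (median 116.1) in GFP- MC pools. The ranges overlapped, with 6 of 17 GFP+ pools above every GFP- pool, and the log2 fold change was 0.43 (SE 0.10, adjusted p = 0.00248). With the 6 MC pools against their label kept, it was 0.49 (SE 0.42, adjusted p = 0.545), and 4.36% of genes were called (2.21% higher, 2.15% lower), whereas *Foxf1* (-6.41), *Foxf2* (-5.10) and *Foxd1* (-2.05) were still called lower. *Foxc1* ranged from 78.8 to 163 CPM (median 107.1) in GFP+ and 67.8 to 173 CPM (median 101.8) in GFP- pools, with almost complete overlap and a log2 fold change of 0.02 (SE 0.11, adjusted p = 0.949). *Foxl1* had 0 to 10.99 CPM (median 5.28) in GFP+ and 0.471 to 20.3 CPM (median 7.08) in GFP- pools, and its log2 fold change of -0.53 (SE 0.38, adjusted p = 0.389) did not pass.

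Neighbouring genes within a cluster did not all change alike, as *Foxf1* was called lower and *Foxc2* higher, while *Mthfsd* and *Foxl1* were not called. On chromosome 8 the order along the plus strand was *Foxf1* (-7.28), *Mthfsd* (-0.04), *Foxc2* (0.43) and *Foxl1* (-0.53), in log2 fold change of GFP+ over GFP- MCs. *Mthfsd*, which lies between the forkhead genes, stood at 36.5 ± 11.9 CPM (SD, n = 17) and 37.2 ± 10.4 CPM (n = 14). *Fendrr*, a long noncoding RNA divergent from *Foxf1*, was too low to be tested, with at most 3 counts in all 17 GFP+ and 12 of 14 GFP- pools. On chromosome 13, *Foxq1*, another forkhead gene 64.8 kb before *Foxf2*, was at 0 in 16 of 17 GFP+ pools and ranged from 0 to 7.21 CPM in GFP- pools (log2 fold change -4.80, SE 0.82, adjusted p = 5.12e-05). It passed the count filter only through the GFP- pools. *Foxc1* (0.02) and *Gmds* beyond it (-0.24, adjusted p = 0.113) were not called. *Foxd2os*, an RNA named for the strand opposite *Foxd2*, was called lower with 11.2 ± 8.63 against 32.9 ± 12.6 CPM (log2 fold change -1.57, SE 0.33, adjusted p = 6.33e-04). In a list of 18 neighbours of the 8 genes, 12 were tested, of which 1 was higher and 3, with *Foxq1* among them, were lower. Of all genes, 5.52% were higher and 4.9% lower. The median of the list was -0.24 beside 0.01 for all genes.

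**Figure D3:**
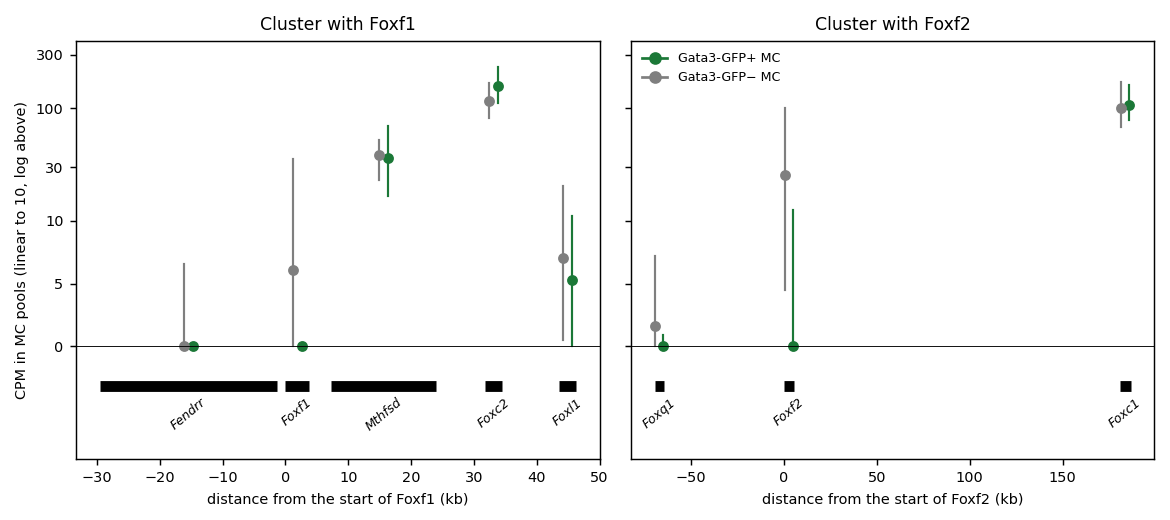
CPM of the forkhead genes and their neighbours in GFP+ and GFP- MC pools, against the distance in kb along the clusters on chromosomes 8 and 13 (boxes mark the genes). Points are medians and lines run from the lowest to the highest pool, on an axis that is linear to 10 CPM and logarithmic above. *Foxf1*, *Foxf2* and *Foxq1* are low in GFP+ pools while *Mthfsd* and *Foxc1* overlap between the groups.

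In ECs, *Foxc2* was the forkhead member that rose with *Gata3*-GFP. It ranged from 68.998 to 123.9 CPM (median 88.5) in the 19 GFP+ pools and from 10.1 to 45.8 CPM (median 19.7) in the 20 GFP- pools. All 19 GFP+ pools lay above every GFP- pool, with a log2 fold change of 2.06 (SE 0.16, adjusted p = 1.60e-14). The background was high, as 36% of 15073 genes were called, 19.5% higher and 16.5% lower. With size factors from the spiked ERCC RNAs, which moved the median of all genes from 0.10 to -0.60, *Foxc2* was called at 1.38 (adjusted p = 5.06e-06).

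Its closest relative *Foxc1* ranged from 4.98 to 58.4 CPM (median 32.03) in GFP+ and 10.8 to 65.7 CPM (median 29.5) in GFP- ECs. These ranges overlapped almost completely and the log2 fold change was -0.03 (SE 0.22, adjusted p = 0.923). *Foxf2* was found at 10 or more counts in 3 of 19 GFP+ and 10 of 20 GFP- pools, with medians of 0 and 3.55 CPM. It passed the filter mainly through GFP- pools and missed the threshold at -1.94 (SE 0.84, adjusted p = 0.0531). *Foxf1* had at least 10 counts in 4 of 19 GFP+ and 5 of 20 GFP- pools, and its log2 fold change of -0.49 (SE 0.87, adjusted p = 0.671) did not pass. *Foxd1*, *Foxd2*, *Foxl1* and *Foxl2* were too low in ECs to be tested.

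Mesenchymal transcripts were also higher in GFP+ ECs, where 7 of the 7 tested markers of a list of 10 were called higher, beside 19.5% of all genes. In GFP- ECs, 8 of these 10 markers had a median of at most 3 counts. Such markers may have passed the count filter only through the GFP+ pools, so their being tested may already have depended on the difference. The summed level of the 10 markers had a median of 94.8 CPM (26.1 to 1596) in GFP+ and 16.2 CPM (3.9 to 72.4) in GFP- ECs, beside 2801 to 5617 CPM in MCs. Mural markers summed to a median of 319 CPM in GFP+ and 18.97 CPM in GFP- ECs. Other lists moved as well, with median sums of 471 against 47.9 CPM for sympathetic markers (3 of 4 tested higher) and 59.9 against 1.28 CPM for epithelial markers (2 of 3 higher). In GFP- ECs, 7 of 11 sympathetic and 6 of 6 epithelial markers likewise had a median of at most 3 counts. Endothelial markers had median sums of 7466 against 4865 CPM (9 of 10 higher, 1 lower). The part of all these lists in the *Foxc2* difference was not tested. Across the 19 GFP+ EC pools, which share the gate and the library method, *Foxc2* had a Spearman correlation of 0.09 with the mesenchymal sum and *Foxd1* of 0.80. The single GFP+ pool with the highest sum, 1596 CPM, was also the single one with more than 3 counts of *Foxd1* (68 counts, 15.8 CPM). Without that pool the *Foxc2* log2 fold change was 2.04, and *Foxf2* stood at -2.29 (adjusted p = 0.0277).

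**Figure D4:**
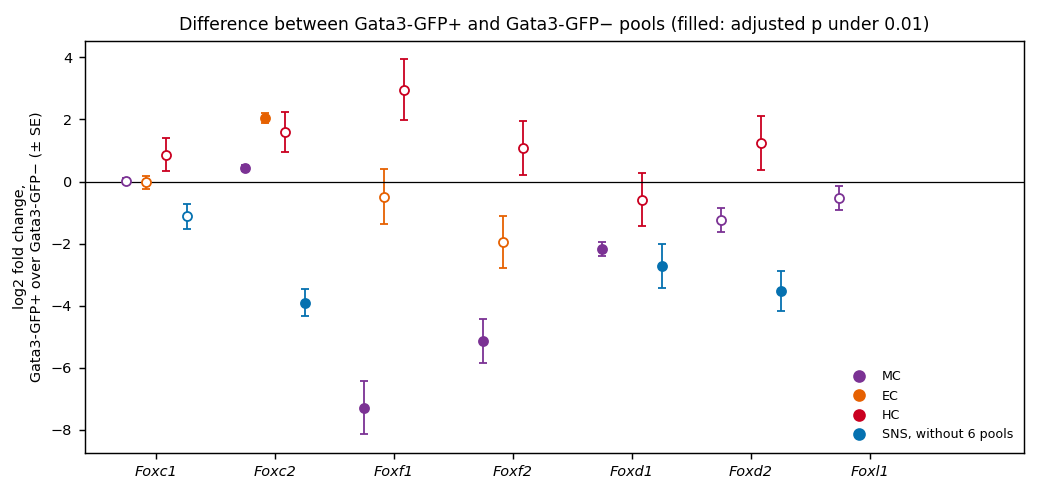
Log2 fold change of GFP+ over GFP- pools with its standard error for each tested member in MCs, ECs, HCs and SNS cells (SNS without the 6 pools against their label), filled where the adjusted p was under 0.01. *Foxf1*, *Foxf2* and *Foxd1* are called lower in MCs, *Foxc2* is called higher in MCs and ECs and lower in SNS cells, and *Foxc1* is at 0.02 and -0.03 in MCs and ECs.

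The balance between both FoxC transcripts was described per pool, a choice made after the values were seen and so given with no test. The log2 ratio of *Foxc2* to *Foxc1*, per exon length and with 1 count added to each, was 2.76 ± 0.86 (SD, n = 19; 1.67 to 5.16) in GFP+ ECs and 0.56 ± 1.06 (n = 20; -1.35 to 2.99) in GFP- ECs. This corresponds to 6.76-fold and 1.47-fold more *Foxc2* than *Foxc1* per exon length, and 7 of 19 GFP+ pools lay above every GFP- pool. The direction in GFP- ECs depended on the scaling for length, as mean log2(CPM + 1) there was 4.90 for *Foxc1* and 4.37 for *Foxc2*. In MCs the ratio was 1.64 ± 0.32 (n = 17) in GFP+ and 1.23 ± 0.38 (n = 14) in GFP- pools, a difference of 0.41 beside 2.20 in ECs, and the ranges overlapped.

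**Figure D5:**
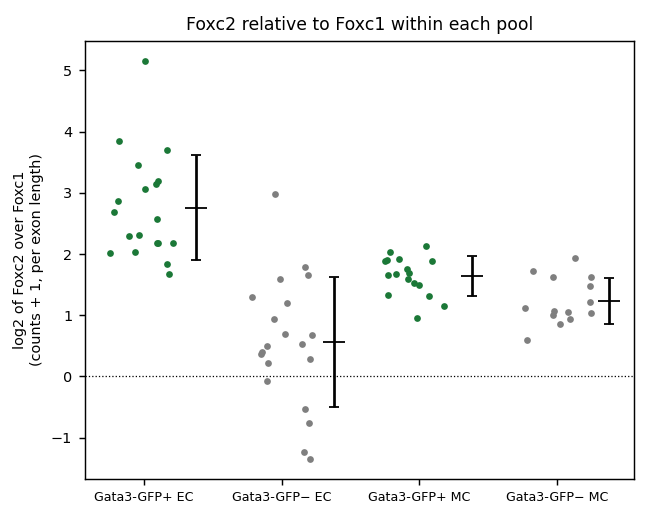
Log2 ratio of *Foxc2* to *Foxc1* per exon length in every EC and MC pool, 1 point per pool, with mean and SD. GFP+ ECs average 2.76 and GFP- ECs 0.56, while both MC populations lie between them at 1.64 and 1.23.

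Whether the GFP effect itself differed between MCs and ECs was tested as an interaction in 1 fit of all 8 populations, in which 12.4% of genes were called, 5.63% higher and 6.81% lower. *Foxf1* was lower by a further 6.79 on the log2 scale in MCs than in ECs (log2 difference -6.79, SE 1.34, adjusted p = 3.24e-05). *Foxd1* was called as well (-4.54, SE 1.26, adjusted p = 0.00445), but without the GFP+ EC pool of highest mesenchymal sum its value was -1.63 (SE 1.82, adjusted p = 0.582). *Foxc2* differed by -1.65 (SE 0.71, adjusted p = 0.0856) and was called only when the SNS pools against their label were left out of the shared fit (SE 0.44, adjusted p = 0.00282). *Foxf2* (-3.21, SE 1.23, adjusted p = 0.0485) and *Foxc1* (0.02) were not called. MCs and ECs also differed in embryonic stage, so cell type and stage cannot be told apart.

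In HCs, none of the 6 tested members was called, whereas 26.6% of 16200 genes were, 17.1% higher and 9.53% lower in GFP+ pools. *Foxc1* held at least 10 counts in 14 of 20 GFP+ and 7 of 20 GFP- pools, with maxima of 17.3 and 20.8 CPM and a log2 fold change of 0.86 (adjusted p = 0.208). *Foxc2* reached 10 counts in 9 and 2 of 20 pools, with maxima of 21.7 and 12.7 CPM (log2 fold change 1.61, SE 0.64, adjusted p = 0.0459). *Foxf1* did so in 5 and 1 of 20 pools, with maxima of 24.7 and 6.01 CPM (2.95, SE 0.98, adjusted p = 0.0153). Of the 6, these 2 had an unadjusted p under 0.05. *Foxc2* and *Foxf1* passed the count filter only through the GFP+ pools, so their being tested already depended on the difference. DESeq2 called *Foxf1* (4.57, adjusted p = 0.00732) and the scanpy test *Foxc2* (2.52, adjusted p = 0.00163), so the calls in HCs depended on the tool. Mesenchymal markers moved with GFP here too, at a median sum of 379 CPM in GFP+ and 43.2 CPM in GFP- HCs (9 of 10 higher). Markers of other cells moved as well. In GFP+ HCs, 11 of 11 sympathetic, 6 of 6 epithelial, 7 of 8 mural and 7 of 10 endothelial markers were higher. Of the hematopoietic markers, 7 of 10 were lower and 2 higher. In GFP- HCs, 5 of 10 mesenchymal, 7 of 11 sympathetic, 5 of 6 epithelial and 5 of 8 mural markers had a median of at most 3 counts. Such markers may have passed the count filter only through the GFP+ pools, so their being tested may already have depended on the difference. Pools with at least 10 counts of a member had a higher median mesenchymal sum than the others for all 6 tested members in GFP- HCs, among them *Foxc1* (72.996 against 10.3 CPM), *Foxc2* (130.4 against 30.5, with 2 such pools) and *Foxf1* (151.2 against 36.4, with 1 such pool). In GFP+ HCs the sum was higher in such pools for *Foxc1* (408 against 321 CPM), *Foxc2* (457 against 328), *Foxd1* (404 against 355, with 1 such pool) and *Foxd2* (445 against 350), and lower for *Foxf1* (328 against 404) and *Foxf2* (313 against 414). The part of these cells in the forkhead values was not tested.

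In SNS cells, the forkhead genes were low, and what was called depended on the pools against their label. With all pools, none of the 4 tested members was called, beside 3.87% of 16143 genes (2.01% higher, 1.85% lower), and none had an unadjusted p under 0.05 with edgeR or was called with DESeq2 or scanpy. Without the 6 pools, 10.4% of 15658 genes were called (4.94% higher, 5.48% lower), and *Foxc2*, *Foxd1* and *Foxd2* were lower in GFP+ pools. *Foxc2* then ranged from 0.205 to 3.97 CPM (median 0.557) in GFP+ and from 1.30 to 31.04 CPM (median 13.9) in GFP- pools, and 14 of 16 GFP- pools lay above every GFP+ pool (log2 fold change -3.90, SE 0.43, adjusted p = 3.26e-08). *Foxd2* ranged from 0 to 2.40 CPM (median 0) in GFP+ and 1.19 to 12.95 CPM (median 3.90) in GFP- pools (-3.52, SE 0.63, adjusted p = 1.12e-04), and *Foxd1* from 0 to 2.43 and 0 to 8.76 CPM (-2.72, SE 0.72, adjusted p = 0.00679). For *Foxd2*, 13 of 15 GFP+ pools lay below every GFP- pool, while the *Foxd1* ranges overlapped more. *Foxc2*, *Foxd1* and *Foxd2* passed the count filter only through the GFP- pools there, so their being tested already depended on the difference. *Foxc1* was at -1.12 (SE 0.40, adjusted p = 0.0511). Of 10 mesenchymal markers, 8 were lower as well, their sum being 109.5 to 337 CPM in GFP+ and 387 to 917 CPM in GFP- pools.

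At the same stage, the mean of both MC populations exceeded that of both SNS populations in 5 of the 7 members tested. In this fit, 27.9% of 19946 genes were called and 12.6% were higher in MCs. The 5 members were *Foxf2* (log2 fold change 2.81, adjusted p = 2.32e-04), *Foxl1* (2.59, adjusted p = 7.86e-06), *Foxc1* (2.36, adjusted p = 2.40e-10), *Foxc2* (2.33, adjusted p = 5.31e-08) and *Foxd1* (1.64, adjusted p = 0.00597). For *Foxf2* the excess lay in GFP- MCs, with a mean log2(CPM + 1) of 4.57 there and 0.38 in GFP+ MCs. With all pools, the *Foxf2* means were 0.85 in GFP+ and 0.17 in GFP- SNS cells. *Foxf1* (2.51, adjusted p = 0.0861) and *Foxd2* (1.04, adjusted p = 0.0777) missed the threshold. Without the SNS pools against their label, the values were larger, with *Foxl1* at 5.20, *Foxc2* at 5.19, *Foxf2* at 5.16, *Foxd1* at 4.81, *Foxc1* at 4.03 and *Foxd2* at 2.43, all called, beside 33.2% of 19859 genes (16% higher).

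At E10.5, ECs exceeded HCs in *Foxc1* (log2 fold change 2.88, adjusted p = 1.28e-14) and *Foxc2* (3.69, adjusted p = 1.25e-15), where 50.3% of genes were called, 22.3% higher and 28% lower in ECs. *Foxd2* was lower in ECs (-2.07, adjusted p = 5.42e-04), although no EC pool had 10 counts and 5 of 20 GFP+ and 2 of 20 GFP- HC pools did. *Foxd1* missed the threshold (-1.53, adjusted p = 0.0285), as did *Foxl1* (1.27, adjusted p = 0.0259), but both passed it without the SNS pools against their label in the shared fit (adjusted p = 0.00657 and 0.00709), and *Foxf1* and *Foxf2* did not pass.

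Of 36 other forkhead genes in the mouse genome, 15 were tested in MCs, of which 2 were higher and 1 lower, beside 5.52% and 4.9% of all genes, with a median of -0.08 beside 0.01 for all genes. *Foxs1*, known from pericytes, was higher (2.07, SE 0.29, adjusted p = 1.63e-06, 47.3 against 11.3 CPM), as was *Foxp2* (0.65, 412 against 261 CPM), and *Foxq1* was the lower one. In ECs, 7 of 15 tested were higher and none lower, beside 19.5% and 16.5% of all genes, with a median of 0.66 beside 0.10. They included *Foxs1* (5.35, 3.42 against 0.0375 CPM), which passed the filter only through the GFP+ pools, *Foxj2* (1.58), *Foxp4* (1.35) and *Foxp2* (1.07).

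Genes of the Hedgehog pathway, which regulates FoxF genes in visceral mesenchyme, were mostly not called in MCs: of 21, 18 were tested, 1 was higher and 4 lower, beside 5.52% and 4.9% of all genes, with a median of -0.19. The receptor and target *Ptch1* had 22.9 ± 8.37 CPM (SD, n = 17) in GFP+ and 83.99 ± 27.1 CPM (n = 14) in GFP- pools, with no overlap between 7.90 to 35.2 and 46.8 to 136.8 CPM (log2 fold change -1.88, SE 0.18, adjusted p = 2.20e-09). The antagonist and target *Hhip* (-4.10, adjusted p = 1.11e-04, with 10 counts reached in 1 GFP+ and 10 GFP- pools), *Ccnd2* (-0.78) and the co-receptor *Gas1* (-0.68) were lower as well, and *Bmp4* was higher (0.84). The relation of these genes to the FoxF difference was not tested. In ECs, where 36% of all genes were called, 14 were tested, 4 were higher (*Gas1* 3.60, *Dhh* 3.46, *Sufu* 0.95, *Ptch1* 0.90) and 2 lower, among them *Bmp4* (-2.09), so *Ptch1* was called in opposite directions in MCs and ECs.

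Arterial and Notch genes, among which FoxC factors are known to act, were higher in GFP+ ECs for 14 of 16 tested genes (median 2.46), beside 19.5% of all genes. The largest were *Gja5* (5.78), *Hey2* (5.65), *Heyl* (5.59, 5.13 against 0.0679 CPM) and *Jag1* (3.71), of which *Heyl* passed the filter only through the GFP+ pools. Of 10 venous and lymphatic genes, 8 were lower, beside 16.5% of all genes, among them *Nrp2* (-4.09), *Aplnr* (-3.55) and *Nr2f2* (-3.51), and *Vegfc* was higher (3.11), with a median of -3.07. In MCs, 7 of 11 arterial and Notch genes tested were higher (median 0.95), beside 5.52% of all genes, and none lower, with *Heyl* at 1.85, *Hey2* at 1.81 and *Jag1* at 1.53.

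Among GFP- MC pools, the levels of the forkhead genes varied together only in part. Across the 14 pools, Spearman's correlation was 0.56 between *Foxf2* and *Foxd1*, 0.56 between *Foxf1* and *Foxd2*, and 0.34 between *Foxc1* and *Foxc2*, the latter pair being at 0.18 in the 17 GFP+ pools. Across all 31 MC pools, which include the GFP difference itself, the genes most like *Foxf2* were *Tubb5* (0.86), *Hmga1* (0.86) and *Gm11223* (0.85), those most like *Foxd1* were *Ebf3* (0.86), *Plod2* (0.86) and *Plagl1* (0.84), and those most like *Foxc2* were *Neo1* (0.79), *Hspg2* (0.77) and *Cavin3* (0.76). *Foxc1* had no gene as close, with *Slc4a3* at 0.65, nor had *Foxl1*, with *Ppie* at 0.64. Across the pools of all 8 populations, which differ in cell type, stage and depth, the profile of *Foxc1* was closest to those of *Rai14* (0.90) and *Foxc2* (0.89), whereas *Rai14*, *Nfia* and *Nfib* (0.90 each) were closest to *Foxc2*.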

How the data were processed

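RNA of 160 pools of 20 sorted cells was amplified by SmartSeq2. The authors aligned the reads and deposited raw HTSeq counts per Ensembl gene in 1 table, with 92 ERCC spike-in RNAs. The study's methods name STAR as the aligner, whereas the submitters' processing notes name GSNAP, HTSeq 0.5.3p3 and mm10. Strand setting and treatment of multiply mapped reads are not given in the sources used here. Ambiguous reads were a median of 16.3% per pool. Column headings gave the population but not the pool number, so each pool was assigned to its group alone. Of 46078 gene identifiers, 45143 were found in GENCODE M21, which supplied symbols and positions.

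The quality limits were 4 of the study's 5: more than 500000 assigned reads including ERCC RNAs, more than 20% of all reads on genes, and less than 20% of assigned reads each from mitochondrial genes and from ERCC RNAs. Its limit of 8000 high coverage genes was not applied, since the coverage meant is not given in the sources used here. Pools that passed had at least 9888 genes with 10 or more counts, and those that failed at most 6110. This left out 7 pools, and 6 MC pools with more *Ngfr* than *Pdgfrb* were left out as well. The numbers of pools used were 19 GFP+ EC, 20 GFP- EC, 20 GFP+ HC, 20 GFP- HC, 17 GFP+ MC, 14 GFP- MC, 18 GFP+ SNS and 19 GFP- SNS. No 2 pools held identical counts. CPM were computed from the counts over library sizes scaled by TMM, jointly for all pools that passed. Groups were compared with edgeR 4.0.16 (R 4.3.3, robust quasi-likelihood test, TMM, genes reaching 10 counts in 5 or more pools of the comparison, Benjamini-Hochberg over all genes tested). A gene was called at an adjusted p under 0.01 and an absolute log2 fold change over 0.1. On simulated counts for the MC comparison (15226 genes), 43.0% of 2-fold and 79.1% of 4-fold changes were called with 1 false call, and for the EC comparison (15073 genes) 43.6% and 79.4%, with 1 false call. These counts were drawn independently for each pool, with a cap on the dispersion and no effect of shared embryos. They therefore give no error rate for the real pools. Alternatives were DESeq2 1.42.0, size factors of DESeq2, scran 1.30.0 and the ERCC RNAs, other filters, the scanpy 1.11.5 test that the study used, other thresholds and other choices of pools.

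The 8 genes, the gene lists and the rules were chosen with earlier results of these data known. All 8 genes are described. Of each list, up to 4 called genes per direction with the largest change are named for MCs and ECs, except some genes that are not reported here, and neighbours of the clusters and *Gata3* are named for position and as a check. For each gene detected in at least 10 MC pools, the 3 genes of highest Spearman correlation were listed. The ratio of *Foxc2* to *Foxc1*, and the fits without a single GFP+ EC or GFP+ MC pool, were added after the values had been seen. Promoters came from RefSeq (GRCm38.p6).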

Additional observations from a re-analysis of the deposited data

Results flagged for a closer look

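The effect of *Gata3*-GFP on 2 forkhead genes differed between MCs and ECs by the interaction term of edgeR's fit. For *Foxf1* the difference was -6.79 on the log2 scale (adjusted p = 3.24e-05): the effect was -7.28 in MCs, where 11 of 14 GFP- pools lay above every GFP+ pool, and -0.49 in ECs, where 4 of 19 GFP+ and 5 of 20 GFP- pools held at least 10 counts. For *Foxd1* the difference was -4.54 (adjusted p = 0.00445): all 17 GFP+ MC pools lay below all 14 GFP- pools, whereas in ECs a single GFP+ pool held 68 of the 75 GFP+ reads. Without that pool the difference was -1.63 (adjusted p = 0.582). Cell type and embryonic stage cannot be told apart in either comparison.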

How the results depend on the processing

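Of 298 values of single forkhead genes under alternatives, 275 kept their direction and side of the threshold, 4 lost and 11 gained a call, and 8 changed sign. The causes were not tested unless given.

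In MCs, *Foxd1* was called lower under every alternative. With at least 10 counts required in 20 pools, 1 member was called lower, since *Foxf1* and *Foxf2* were no longer tested. At an adjusted p under 0.05, 2614 genes were called instead of 1586. With the 6 pools against their label, 698 genes were called, and 0 members were called higher. In ECs, *Foxc1* changed sign near 0 with DESeq2 and with its size factors (0.0091 with the size factors, 0.0094 with DESeq2's test). In HCs, 2 members were called higher at an adjusted p under 0.05 (*Foxc2* and *Foxf1*), and 1 each with DESeq2 (*Foxf1*) and scanpy (*Foxc2*). In SNS cells, 1331 genes were called at 0.05, 1013 with ERCC size factors and 1631 without the 6 pools against their label, instead of 624. With no filter, 1 member was called higher (*Foxf2*) and 1 lower (*Foxf1*), and without the 6 pools 3 were lower. *Foxd1* turned from 0.81 to -1.74 with scanpy and to -2.72 without those pools. Between MCs and SNS cells, ERCC size factors gave 10416 called genes instead of 5558. Between ECs and HCs, 2 members were lower (*Foxd1* and *Foxd2*) instead of 1 with ERCC size factors, without the GFP+ EC pool of highest mesenchymal sum, and without the SNS pools against their label, where *Foxl1* was also called higher (1.27). *Foxf2* there turned from 0.17 to -0.29 and -0.014 under the first and second of these. For the interaction, ERCC size factors gave 5768 called genes instead of 2480 and 1 member lower (*Foxf1*), as did leaving out that EC pool, and *Foxd2* turned from -0.07 to 0.63 with ERCC size factors and to 0.088 with the MC pools against their label.

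ERCC size factors moved the share of calls that were higher from 52.96% to 81.8% in MCs, 54.1% to 14.3% in ECs, 52.1% to 83.3% in SNS cells, 45.1% to 10.96% between MCs and SNS cells, 44.3% to 25.3% between ECs and HCs and 45.2% to 91.1% for the interaction. The medians of all genes became 0.16, -0.60, 0.35, -0.60, -0.46 and 0.77. In MCs *Foxc2* (0.54), *Foxd1* (-2.01), *Foxf2* (-5.02) and *Foxf1* (-7.32) kept their directions. The scanpy test moved the share in HCs from 64.2% to 52.9%.

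No paired analysis was possible because the column headings of the counts carry no pool number. Fits without each pool in turn were not run, as all groups held over 5 pools. A value of 0 reads, as for *Foxl2*, allows up to 3 reads in a pool.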

Other observations

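Lists of genes of other mesodermal tissues were counted in MCs as well, beside 5.52% of all genes called higher and 4.9% lower. Of 17 splanchnic and sub-aortic mesenchyme genes, 14 were tested in MCs, of which 4 were higher in GFP+ pools (*Isl1* 3.17, *Gata6* 2.36, *Hand2* 1.78 and *Bmp4* 0.84, in log2 fold change) and 2 lower, among them *Nkx3-2* (-5.96), with a median of 0.44 beside 0.01 for all genes. *Isl1* and *Hand2* are also on the list of sympathetic markers, and they were the 2 genes of that list called higher in MCs. *Nkx3-2*, a homeobox factor of spleen, gut and axial mesenchyme, averaged 0.0370 CPM in GFP+ and 4.52 CPM in GFP- pools and passed the count filter only through the latter. Of 17 nephrogenic and metanephric genes, 13 were tested, and *Gdnf*, the ligand that draws out the ureteric bud, was the single one called (2.48, 18.02 against 3.21 CPM), while the median was -0.59. Of 12 gonad genes, 9 were tested and *Sox9* (-1.13) and *Cbx2* (-0.86) were lower, with a median of -0.86. *Tbx1*, a T-box factor on the venous and lymphatic list, was lower in GFP+ MCs (-5.85, 1.68 against 102.5 CPM), and *Trabd2b*, a neighbour of *Foxd2*, was higher (1.70).

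The 12 E11.5 pools against their label differed by their GFP label as well. The 3 pools labelled GFP+ SNS held 73.4 to 109.3 CPM of *Foxd1* and 8.60 to 36.7 CPM of *Foxf2*, within the ranges of GFP- MCs, with *Gata3* at 9.93 to 24.2 CPM. The 3 labelled GFP- SNS held 16.8 to 49.5 CPM of *Foxd1*, reaching above the GFP+ MC range of 4.97 to 26.8 CPM into that of GFP- MCs, and 0 to 1.17 CPM of *Foxf2*, with *Gata3* at 44.01 to 49.7 CPM, inside the *Gata3* range of GFP+ MCs (19.8 to 70.3 CPM). The 3 labelled GFP- MC held 122.4 to 391 CPM of *Gata3*, against 110.01 to 305 CPM in GFP+ SNS pools that matched their label, and at most 0.681 CPM of *Foxd1* and 0.188 CPM of *Foxf2*. The 3 labelled GFP+ MC held 16.2 to 82.8 CPM of *Gata3*, 0 to 11.7 CPM of *Foxd1* and no *Foxf2* read, and *Gata3* was at 11.1 to 93.7 CPM in GFP- SNS pools that matched their label.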
